A study of Mus musculus with 10 samples.

Results

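The MHC class I presentation genes described here are H2-K1, H2-D1, B2m, Tap1, Tap2, Tapbp, Psmb8 and Psmb9, found by their symbols in the count files of 10 libraries. All 8 were found among 23238 symbols, no library listed any of them at 0, and all 8 passed the filter on low counts. The libraries were made from endothelial cells purified from high-grade gliomas that grew after GL26l glioma cells were injected into the brains of C57BL/6 mice. In the Sox7 arm, 2 libraries came from mice in which floxed Sox7 alleles (Sox7fl/fl) were combined with the Cdh5(BAC)-CreERT2 line and tamoxifen was given at 20 mg/kg, and 2 were Sox7 controls. In the Sox17 arm, 3 libraries came from the same driver line with Sox17fl/fl and tamoxifen, and 3 were Sox17 controls. Cdh5(BAC)-CreERT2 is a recombinase under regulatory sequence of VE-cadherin, active in endothelium after tamoxifen. The labels give neither the alleles nor the tamoxifen of the controls, nor the age of the mice, so deletion and tamoxifen or recombinase cannot be told apart in any comparison. Libraries are compared by set, 1 deficient with the equally numbered control, which gives 2 Sox7 sets and 3 Sox17 sets. The labels do not say that libraries came from separate animals, and p-values measure the spread between these libraries, which may be partly technical.

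MHC class I molecules show peptides from the cell's own proteins to CD8+ T cells. The proteasome cuts the proteins, TAP pumps the peptides into the endoplasmic reticulum, and tapasin holds TAP and an empty class I molecule together until a peptide is bound. Each class I molecule is a heavy chain, here H2-K1 or H2-D1, paired with beta-2-microglobulin, the product of B2m. Interferon-gamma raises transcription of the whole set in many cells, endothelium included, through factors such as IRF1 and NLRC5. Psmb8 and Psmb9 encode catalytic subunits that replace constitutive ones in the immunoproteasome. Sox7 and Sox17 are SoxF transcription factors that act in endothelium, and the comparison asks whether their loss moved this set of genes in tumour vessels.

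Of the 8 genes, 7 lie on chromosome 17 and B2m on chromosome 2 (GRCm38, GENCODE vM21). H2-K1 is at chr17:33996017-34000347 on the minus strand and H2-D1 at chr17:35262730-35267499 on the plus strand, 1.26 Mb apart. Between them, Psmb9, Tap1, Psmb8 and Tap2 form a cluster of 34335 bp (chr17:34181987-34216321), flanked by class II genes. Psmb9 and Tap1 point away from each other, and their 5′ ends overlap by 212 bp, so that both genes start from 1 shared stretch. Tapbp is at chr17:33915899-33929292 on the plus strand and B2m at chr2:122147686-122153083 on the plus strand. QuantSeq counts 1 short read per transcript, close to its 3′ end, so what matters for counting is the last exon. The last exon of B2m lies in an intron of Patl2 on the other strand and that of Psmb8 in an intron of the antisense gene Gm20496. The strand setting of the counting is not given in the sources used here, so reads of such partners cannot be told apart. Of the 50-base words in the last 300 bases of the transcript, 17.1% of those of H2-D1 also occurred in other genes such as Adsl and Kcnk4, 0.797% of those of H2-K1 occurred in H2-D1, and none of those of the other members did. The counts of H2-K1 and H2-D1 are uncertain to the extent that reads were shared. Adsl and Kcnk4, among the genes that shared most words with H2-D1 (22 each), are not class I genes.

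The 250 bases before the RefSeq start site are shown for H2-K1, H2-D1, B2m and Tap1, because they are the stretches through which the members could share regulation (RefSeq, GRCm38.p6). The H2-K1 stretch is chr17:34000348-34000597 on the minus strand, H2-D1 chr17:35262844-35263093, B2m chr2:122147437-122147686 and Tap1 chr17:34187306-34187555, all of the last 3 on the plus strand. RefSeq and GENCODE place some starts differently: the windows of H2-D1, Tapbp, Psmb8 and Psmb9 lie wholly inside the GENCODE gene spans, so they precede the RefSeq start and not the outermost GENCODE start. Each is written 5′ to 3′ on the gene's own strand, and capitals mark matches on either strand to an NF-kB consensus, to the core of the interferon-stimulated response element (ISRE, GAAA, any 2 bases, GAAA) and to the CCAAT box.
H2-K1: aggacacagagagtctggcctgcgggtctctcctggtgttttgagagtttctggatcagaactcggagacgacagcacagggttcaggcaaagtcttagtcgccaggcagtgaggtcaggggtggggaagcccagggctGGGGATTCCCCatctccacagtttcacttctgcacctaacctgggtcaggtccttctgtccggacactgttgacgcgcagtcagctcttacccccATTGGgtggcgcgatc
H2-D1: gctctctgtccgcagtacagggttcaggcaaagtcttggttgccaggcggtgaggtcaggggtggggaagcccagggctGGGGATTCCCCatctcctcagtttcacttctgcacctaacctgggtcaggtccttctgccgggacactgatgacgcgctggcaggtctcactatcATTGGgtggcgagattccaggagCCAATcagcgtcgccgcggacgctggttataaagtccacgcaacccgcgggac
B2m: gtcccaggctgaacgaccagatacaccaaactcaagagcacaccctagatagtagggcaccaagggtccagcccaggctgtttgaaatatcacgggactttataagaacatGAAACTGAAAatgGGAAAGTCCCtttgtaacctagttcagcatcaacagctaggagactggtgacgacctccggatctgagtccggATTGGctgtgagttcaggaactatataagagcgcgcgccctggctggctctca
Tap1: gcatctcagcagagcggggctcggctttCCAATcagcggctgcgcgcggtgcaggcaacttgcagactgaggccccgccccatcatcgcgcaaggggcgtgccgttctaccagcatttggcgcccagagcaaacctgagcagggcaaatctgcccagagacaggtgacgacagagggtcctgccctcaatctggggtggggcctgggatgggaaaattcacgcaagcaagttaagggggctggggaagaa
The H2-K1 and H2-D1 stretches matched at 87.4% of 190 aligned bases and shared a run of 47 bases without a difference, which holds the NF-kB match GGGGATTCCCC. B2m held an ISRE core, GAAACTGAAA, at 139 to 130 bases before the RefSeq start, next to a different NF-kB match, GGAAAGTCCC. The ISRE search took only the exact core, so looser forms of the element in any stretch are not marked. Among 32851 RefSeq promoter windows of the same length, 2.98% held the ISRE core, 7.25% the NF-kB consensus, 33.8% CCAAT and 17.8% TGACG, the half-site of a cyclic-AMP response element. CCAAT was present in the RefSeq windows of 6 members (H2-K1, H2-D1, B2m, Tap1, Tapbp, Psmb9) and TGACG in those of 5 (H2-K1, H2-D1, B2m, Tap1, Psmb9). The NF-kB and ISRE matches in the first 3 stretches overlap no CCAAT match. The windows of Tap1 and Psmb9 share 225 bases, so their matches are partly the same letters read on opposite strands. Psmb8 held none of the 4 motifs, and Tap2 was not matched in the promoter table. A match is a description of letters, not a bound site.

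Library totals ran from 2082305 counts (Sox17 control 1) to 35068802 (Sox17-deficient 2). In these, 3 counts, taken as the limit of detection, corresponded to 1.44 and 0.0855 counts-per-million units (CPM) of the unscaled totals. All other CPM are relative to scaled library sizes. The ribosomal RNA precursor Rn45s took 3.93 to 28.8% of counts. The targeted gene followed the labels in every set. Sox7 was at 23.1 and 5.90 CPM in the Sox7 controls and at 0.58 and 0.66 CPM in the Sox7-deficient libraries. Sox17 was at 174.3, 90.1 and 93.4 CPM in the Sox17 controls and at 1.93, 1.07 and 6.70 CPM in the Sox17-deficient libraries. All 22 endothelial markers were detected in all libraries, with a summed level of 14440 to 28858 CPM. Markers of B cells were at or near 0 in every library (0 to 2.89 CPM summed over 4 genes). Those of T and NK cells reached at most 39.3 CPM over 10 genes, in Sox7-deficient 1.

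2 departures touch the class I values. In Sox7-deficient 1, the 18 macrophage markers summed to 22242 CPM, against 1311 CPM in the control of that set and 37.2 to 848 CPM in the other 8 libraries. Endothelial markers were at 14440 CPM there against 25806 CPM in its control. Dendritic cell markers summed to 282 CPM against 29.0 CPM, and T and NK cell markers to 39.3 against 7.18 CPM. Neutrophil markers were lower in that library, at 20.9 against 39.6 CPM. Sox17 control 1 was the shallowest library, and both libraries of Sox17 set 1 had the lowest macrophage sums (37.2 and 54.6 CPM, with 12 of 18 markers at 0 in each). In bulk RNA, fewer cells of a type and less RNA per cell cannot be told apart.

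The 8 genes covered a wide range of levels. QuantSeq gives about 1 tag per transcript whatever its length, so CPM were not divided by length. By mean CPM over the 10 libraries, H2-K1 ranked 9 of 13040 tested genes, B2m 19, H2-D1 20 and Tap2 61, whereas Tap1 ranked 725, Tapbp 798, Psmb8 992 and Psmb9 1019. In every library the heavy chains, B2m and Tap2 filled the first 4 places, and Tap1, Tapbp, Psmb8 and Psmb9 the last 4. Within these 2 tiers the order varied: B2m was first in both libraries of Sox17 set 1 and below at least 1 heavy chain in the other 8.

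**Figure D1:**
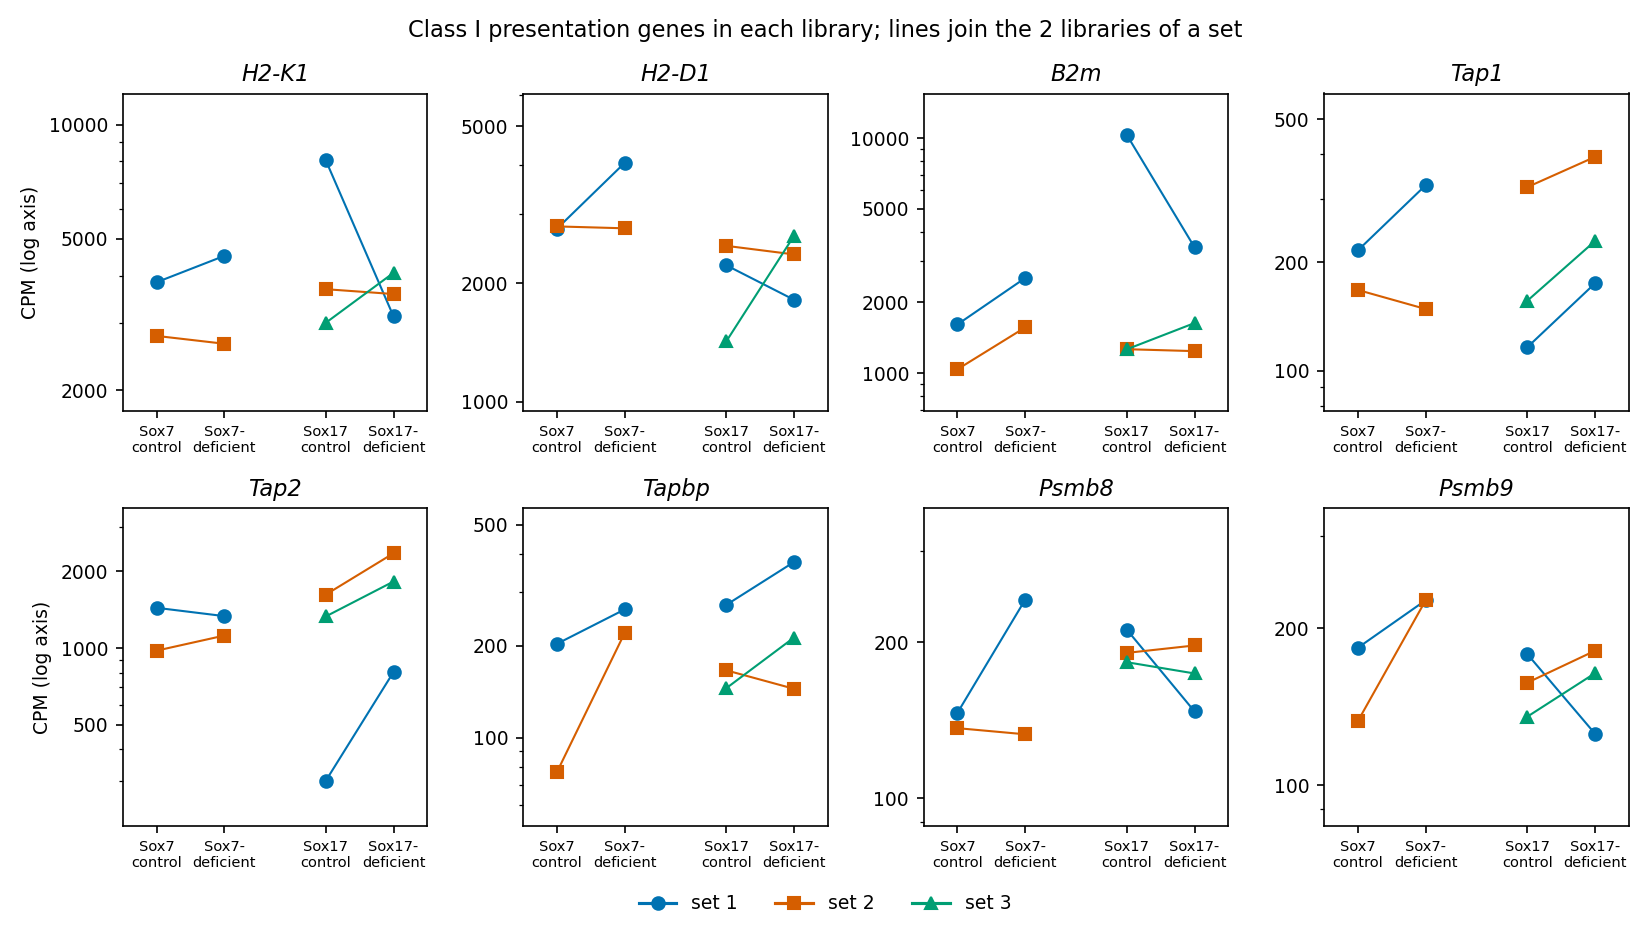
CPM (log axis) of each class I presentation gene in the 10 libraries. Each line joins the control and the deficient library of 1 set, and colours and symbols mark the set number. H2-K1 and B2m were highest in Sox17 control 1 (8047 and 10319 CPM), and Tap2 was lowest there (301.3 CPM).

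H2-K1 encodes the heavy chain of the K molecule. It was at 3846 and 2779 CPM in the Sox7 controls and at 4513 and 2651 CPM in the Sox7-deficient libraries. In the Sox17 arm it was at 8047, 3688 and 3010 CPM in the controls and at 3127, 3582 and 4074 CPM in the deficient libraries. Sox17 control 1 stood at more than any other library, and in both arms deficient and control libraries overlapped. Sox7 loss gave a log2 fold change of 0.11 (SE 0.53) and Sox17 loss one of −0.45 (SE 0.44). Without Sox17 control 1 the second value was 0.09. Without Sox7-deficient 1 the first was −0.35. Apart from Sox17 control 1, the 9 libraries lay within 1.70-fold of each other.

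H2-D1 encodes the heavy chain of the D molecule. It was at 2750 and 2786 CPM in the Sox7 controls and at 4042 and 2755 CPM in the Sox7-deficient libraries. It was at 2220, 2487 and 1422 CPM in the Sox17 controls and at 1814, 2365 and 2637 CPM in the Sox17-deficient libraries. Sox7-deficient 1 was highest and Sox17 control 3 lowest, and the groups overlapped in both arms. Fitted log2 fold changes were 0.30 (SE 0.47) with Sox7 loss and 0.15 (SE 0.39) with Sox17 loss. The first was −0.03 without Sox7-deficient 1 and the second −0.05 without Sox17 control 3.

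The ratio of the 2 heavy chains within a library does not depend on library scaling. H2-D1 made up 41.7 and 50.1% of H2-K1 plus H2-D1 counts in the Sox7 controls and 47.2 and 51.0% in the Sox7-deficient libraries. It made up 21.6, 40.3 and 32.1% in the Sox17 controls and 36.7, 39.8 and 39.3% in the Sox17-deficient libraries. Sox17 control 1 had the lowest share, with an exact binomial 95% interval of 21.1 to 22.2% that covers counting error only. The mean difference was 3.23 percentage points in the Sox7 arm (exact two-sided permutation p = 0.667, adjusted 0.8 over the 4 share tests) and 7.27 points in the Sox17 arm (p = 0.4, adjusted 0.8). The smallest p that these designs allow is 0.333 and 0.1. In the Sox7 arm the difference was −0.954 points without Sox7 control 1 and 7.42 without Sox7 control 2. In the Sox17 arm it was 2.41 points without Sox17 control 1 and 11.7 without Sox17 control 2.

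B2m, the light chain of every classical class I molecule, had the widest range of the 8 genes over all 10 libraries, 9.93-fold, but 3.30-fold without Sox17 control 1, less than the 4.89-fold of Tapbp. It was at 1613 and 1040 CPM in the Sox7 controls and at 2541 and 1566 CPM in the Sox7-deficient libraries. It was at 10319, 1265 and 1264 CPM in the Sox17 controls and at 3434, 1242 and 1634 CPM in the Sox17-deficient libraries. Each Sox7-deficient library was above the control of its set, by 0.66 and 0.59 on the log2(CPM + 1) scale, yet the groups overlapped across sets. The 2 libraries of Sox17 set 1 were the highest of all 10. The fit gave log2 fold changes of 0.63 (SE 0.91) with Sox7 loss and −1.03 (SE 0.75) with Sox17 loss. The second became 0.72 without Sox17 control 1 and 0.17 without both libraries of that set.

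B2m made up 50.1 and 41.0% of the counts of B2m, H2-K1 and H2-D1 together in the control and the deficient library of Sox17 set 1. In the other 8 libraries it made up 15.7 to 22.9%. In the Sox7 arm the shares were 19.6 and 15.7% in the controls and 22.9 and 22.5% in the deficient libraries, which did not overlap. The B2m shares were not tested, and the smallest permutation p with 2 libraries against 2 is 0.333. In Sox17 sets 2 and 3 they were 17.01 and 22.2% in the controls and 17.3 and 19.6% in the deficient libraries. The high B2m share thus went with both libraries of 1 set and not with 1 genotype. Pericyte markers summed to 841 CPM in the control of that set and 190 CPM in the deficient library. In Sox17 set 2, with B2m shares of 17.01 and 17.3%, they summed to 620 and 207 CPM. The part of any cell type in the B2m shares was not tested.

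Tap1 encodes the first subunit of the peptide pump. It was at 216.0 and 167.6 CPM in the Sox7 controls and at 327.6 and 148.4 CPM in the Sox7-deficient libraries. It was at 116.2, 323.5 and 156.4 CPM in the Sox17 controls and at 174.8, 392.6 and 229.1 CPM in the Sox17-deficient libraries. The deficient library was above the control in all 3 Sox17 sets, by 0.59, 0.28 and 0.55 on the log2(CPM + 1) scale, while the 2 Sox7 sets went opposite ways (0.60 and −0.17). Set 2 lay above the other 2 Sox17 sets in both genotypes, so that groups overlapped. With Sox7 loss its log2 fold change was 0.31 (SE 0.56), or −0.40 without Sox7-deficient 1, and with Sox17 loss 0.42 (SE 0.46). The Sox17 value was 0.022 without Sox17-deficient 2 and 0.95 without Sox17 control 2.

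Tap2, the second subunit, pairs with Tap1 in the pump. It was at 1439 and 977 CPM in the Sox7 controls and at 1335 and 1119 CPM in the Sox7-deficient libraries. It was at 301.3, 1622 and 1331 CPM in the Sox17 controls and at 805.4, 2356 and 1825 CPM in the Sox17-deficient libraries. As with Tap1, all 3 Sox17 sets had the deficient library above its control, by 1.42, 0.54 and 0.45, and Sox17 control 1 was the lowest of the 10. For Sox7 loss the log2 fold change came to 0.02 (SE 0.64) and for Sox17 loss to 0.62 (SE 0.53). The second value ran from 0.16 without Sox17 control 1 to 1.02 without Sox17 control 2. Tap1 made up 27.8% of Tap1 plus Tap2 counts in Sox17 control 1, on 256 Tap1 counts, and 10.5 to 19.7% in the other 9 libraries.

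Tapbp encodes tapasin. It was at 203.2 and 77.1 CPM in the Sox7 controls and at 263.5 and 220.7 CPM in the Sox7-deficient libraries. Both deficient libraries were above both controls, with differences per set of 0.37 and 1.51 on the log2(CPM + 1) scale. It was at 272.7, 166.2 and 145.2 CPM in the Sox17 controls and at 377.2, 144.5 and 213.0 CPM in the Sox17-deficient libraries, where the groups overlapped. Its log2 fold change with Sox7 loss, 0.79 (SE 0.56), was the largest of the 8 there, and with Sox17 loss it was 0.33 (SE 0.45). Without Sox7 control 2, the low library, the first was 0.25.

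Psmb8 encodes the immunoproteasome subunit also called LMP7. It was at 146.2 and 136.5 CPM in the Sox7 controls and at 241.6 and 132.8 CPM in the Sox7-deficient libraries. It was at 211.5, 190.7 and 183.0 CPM in the Sox17 controls and at 147.1, 197.1 and 174.1 CPM in the Sox17-deficient libraries. Sox7-deficient 1 was the highest of the 10 libraries, and the groups overlapped in both arms. Log2 fold changes were 0.41 (SE 0.45) with Sox7 loss, −0.12 without Sox7-deficient 1, and −0.17 (SE 0.37) with Sox17 loss.

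Psmb9 encodes the subunit also called LMP2. It was at 183.4 and 132.7 CPM in the Sox7 controls and at 226.2 and 226.2 CPM in the Sox7-deficient libraries. Both deficient libraries were above both controls, by 0.30 and 0.76 per set on the log2(CPM + 1) scale. It was at 178.3, 157.1 and 135.2 CPM in the Sox17 controls and at 125.5, 180.9 and 163.9 CPM in the Sox17-deficient libraries, which overlapped. Sox7 loss gave 0.52 (SE 0.45) and Sox17 loss −0.00019 (SE 0.36) as log2 fold change. Psmb8 and Psmb9 had the narrowest ranges of the 8 genes over 10 libraries, 1.82-fold and 1.80-fold, while without Sox17 control 1 that of H2-K1 was narrower, at 1.70-fold. Among the 1911 genes with a mean of at least 100 CPM, 93.5% had a larger SD of log2 level than Psmb8 and 92.5% a larger one than Psmb9, against 60.3% for H2-K1 and 4.87% for B2m. Without Sox17 control 1 these shares were 89.7% for Psmb8, 85.2% for Psmb9, 93.0% for H2-K1 and 30.8% for B2m.

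Counts of the inducible catalytic subunits Psmb8, Psmb9 and Psmb10 were set against those of their constitutive counterparts Psmb5, Psmb6 and Psmb7. The inducible share was 59.7 and 52.9% in the Sox7 controls and 60.4 and 55.1% in the Sox7-deficient libraries. It was 67.8, 54.3 and 49.98% in the Sox17 controls and 56.3, 49.5 and 55.8% in the Sox17-deficient libraries. The share thus lay between 49.5 and 67.8% in all 10 libraries, and Sox17 control 1 stood highest (exact binomial 95% interval 65.5 to 70.1%). The mean difference was 1.44 points in the Sox7 arm (exact two-sided permutation p = 0.667, adjusted 0.8) and −3.50 points in the Sox17 arm (p = 0.8, adjusted 0.8). The groups overlapped in both arms. Without Sox17 control 1 the second difference was 1.73 points, and without Sox7 control 2 the first was −1.97 points.

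**Figure D2:**
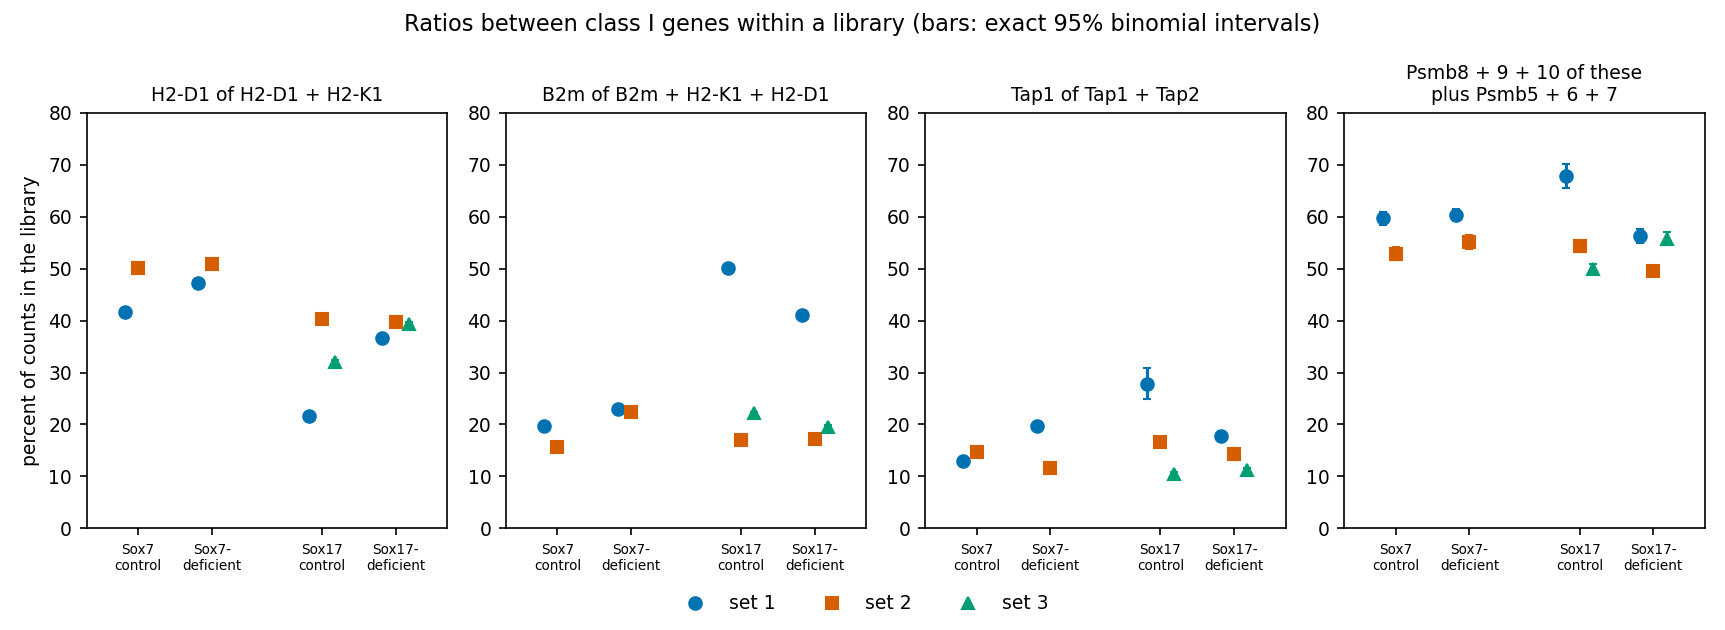
Shares of counts within each library, in percent: H2-D1 among the 2 heavy chains, B2m among B2m and heavy chains, Tap1 among both pump subunits, and inducible among all catalytic proteasome subunits. Points are libraries, symbols mark the set, bars are exact 95% binomial intervals of counting error, and axes start at 0. Both libraries of Sox17 set 1 have the highest B2m share (50.1 and 41.0%).

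Group means put the levels in order, and in 20 of 24 steps between neighbouring groups the gap was smaller than the larger of their SDs. For H2-K1 the Sox17 control mean was 4915 ± 2733 CPM (SD, n = 3), followed by 3594 ± 474 in Sox17-deficient (n = 3), 3582 ± 1317 in Sox7-deficient (n = 2) and 3313 ± 755 in Sox7 control (n = 2). For H2-D1 the order was Sox7-deficient (3399 ± 909), Sox7 control (2768 ± 25.5), Sox17-deficient (2272 ± 419) and Sox17 control (2043 ± 554). For B2m it was Sox17 control (4283 ± 5227), Sox17-deficient (2103 ± 1169), Sox7-deficient (2053 ± 689) and Sox7 control (1326 ± 405). The 4 steps beyond it were Sox7 control to Sox17-deficient for H2-D1, Sox7-deficient to Sox7 control for B2m and for Psmb9, and Sox17-deficient to Sox7 control for Psmb8. The libraries of the B2m pair overlapped. Sox7-deficient libraries had the highest mean of Psmb9 (226.2 ± 0.0042 CPM against 158.1 ± 35.8 in Sox7 control), where the gap exceeded the SD of both groups. That SD rests on only 2 libraries whose values happened to be close. For Tap1, Tap2 and Tapbp the Sox17-deficient mean was highest (266 ± 113, 1662 ± 788 and 245 ± 120 CPM), and for Psmb8 the Sox17 control mean (195 ± 14.7 CPM).

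No member passed the test in either comparison. By edgeR's quasi-likelihood test with Benjamini-Hochberg adjustment, all 8 had an adjusted p of 1 for Sox7 loss and for Sox17 loss, and the smallest unadjusted p was 0.174 (Tapbp) and 0.196 (B2m). The share of all 13040 tested genes with an adjusted p under 0.05 was 0% in each comparison, so a count of 0 members stood at the background. At an unadjusted p under 0.05, 195 genes were called for Sox7 loss and 459 for Sox17 loss, with 0 members among either. DESeq2 called 3 and 29 genes, limma-voom 0 and 0, and edgeR with the set number as a block 1 and 6, again with no member. The smallest adjusted p of the whole table was 1 for Sox7 loss and 0.226 for Sox17 loss, the latter that of Sox17 itself. The deleted genes themselves thus went uncalled by this test, at log2 fold changes of −4.52 (SE 1.04, Sox7) and −5.24 (SE 0.81, Sox17). The 95% intervals bound what could have been missed: for H2-D1, the narrowest of the highly expressed members, log2 fold changes outside −0.70 to 1.29 (Sox7) and −0.66 to 0.96 (Sox17) lay beyond the interval. For B2m the intervals were −1.36 to 2.62 and −2.66 to 0.61. With 1 library or another left out, all 24 log2 values of the members (8 in each of the 3 comparisons) turned or moved by over 1.5 times, as did 35 of the 42 given to other named genes.

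**Figure D3:**
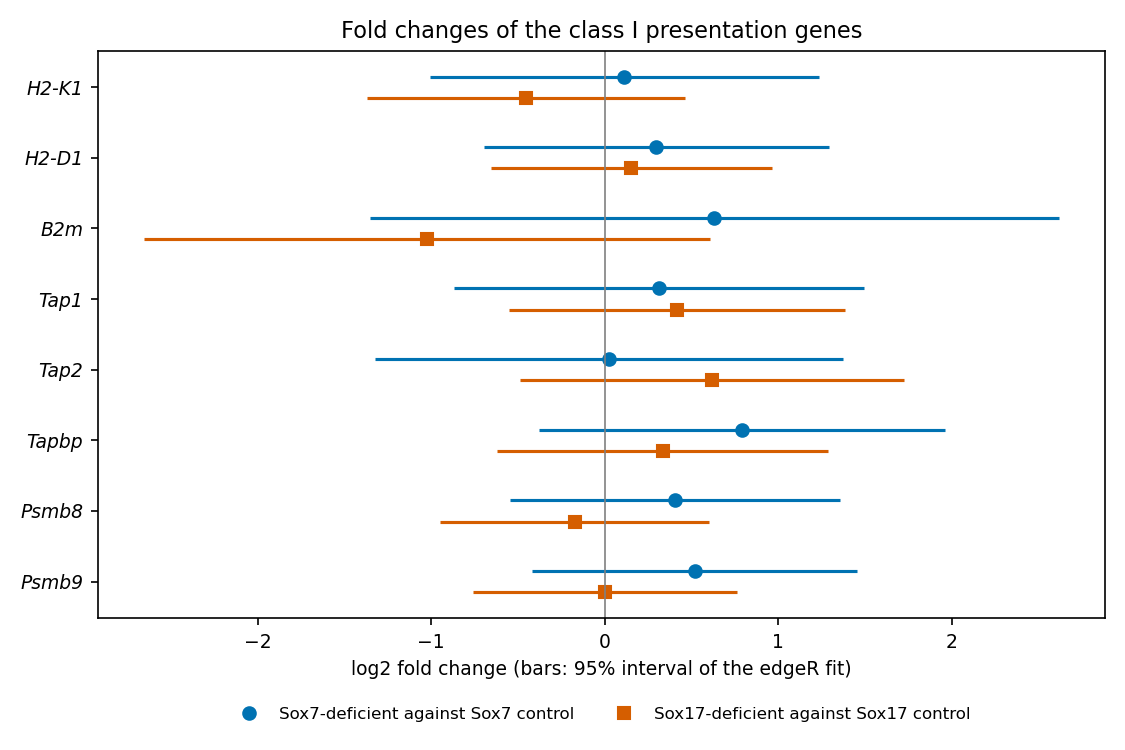
Log2 fold changes of the 8 class I presentation genes for Sox7 loss (circles) and Sox17 loss (squares), with the 95% interval of the edgeR fit as a bar. All 16 intervals include 0, and the widest are those of B2m (−1.36 to 2.62 and −2.66 to 0.61).

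Described as a list, all 8 members had a positive fitted log2 fold change for Sox7 loss (6 of 8 with plain library sizes, where H2-K1 and Tap2 were at −0.032 and −0.0666), with a median of 0.36 beside 0.04 over all genes tested. This median was −0.07 without Sox7-deficient 1, the library rich in macrophage transcripts, and 0.66 without Sox7-deficient 2. Macrophage markers were positive for 18 of 18 genes in that comparison (median 3.75, 0 passed) and endothelial markers negative for 20 of 22 (median −0.45, 0 passed). The 2 sets differed: the macrophage sum of the deficient library was 16.96 times its control in Sox7 set 1 and 0.468 times in Sox7 set 2. For Sox17 loss 4 members were positive and 4 negative, with a median of 0.08 beside 0.05 over all genes. There macrophage markers were negative for 17 of 18 genes (median −0.80, 0 passed) and pericyte markers for 7 of 7 (median −0.98, 0 passed). The part of these lists in the members' values was not tested. The contrast of the 2 losses was tested directly. The Sox7 log2 fold change minus the Sox17 one ran from −0.59 (Tap2) to 1.66 (B2m), with a median of 0.49 beside 0.02. No member passed that test (adjusted p = 0.999986 for each, smallest unadjusted p 0.186), 374 genes had an unadjusted p under 0.05, and the background of the test was 0%. DESeq2 called 14 genes for this contrast, limma-voom 0 and edgeR with the block 3, with no member.

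Separation of the groups was near the background too. Deficient and control libraries did not overlap for 2 of 8 members in the Sox7 arm (Tapbp and Psmb9, both higher), where 25.6% of all tested genes were separated in either direction. In the Sox17 arm this held for 0 of 8 members, against 8.35% of genes. The difference had the same sign in every set for 3 of 8 members in the Sox7 arm (B2m, Tapbp, Psmb9, all positive), against 44.8% of genes. In the Sox17 arm it did for 2 of 8 (Tap1 and Tap2, both positive), against 24.6% of genes. For 0 of 8 members did every Sox7 set go opposite to every Sox17 set, against 5.27% of genes.

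Set by set, the 8 genes did not keep 1 direction. On the log2(CPM + 1) scale their median difference was 0.46 in Sox7 set 1 (7 of 8 positive) and 0.09 in Sox7 set 2 (4 of 8). It was −0.40 in Sox17 set 1 (3 of 8 positive), 0.01 in Sox17 set 2 (4 of 8) and 0.45 in Sox17 set 3 (7 of 8). The largest single differences were those of B2m (−1.59), Tap2 (1.42) and H2-K1 (−1.36), all in Sox17 set 1, and Tapbp in Sox7 set 2 (1.51). In Sox17 set 2, with the deepest library, no member differed by more than 0.54. In Sox17 set 1, B2m, both heavy chains and both immunoproteasome subunits were lower in the deficient library, and Tap1, Tap2 and Tapbp were higher. This is 1 pair of libraries. The quartiles of all tested genes in it were −0.54 and 1.38, and only B2m, H2-K1 and Tap2 lay outside them. Medians over all tested genes were 0.03 and 0 in Sox7 sets 1 and 2. They were 0.12, 0 and −0.12 in Sox17 sets 1, 2 and 3.

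Class II presentation serves peptides from outside the cell and is best known from macrophages, dendritic cells and B cells. Its 10 genes summed to 523 CPM in Sox7 control 1 and 4165 CPM in Sox7-deficient 1, a ratio of 7.96, beside a ratio of 16.96 for macrophage markers and 1.30 for the class I members. In Sox7 set 2 the ratios were 0.846 for class II, 0.468 for macrophage markers and 1.09 for class I. In Sox17 set 1 class II genes summed to 218 CPM in the control and 278 CPM in the deficient library. Macrophage markers summed to 37.2 and 54.6 CPM there. H2-Eb1, a class II beta chain, was at 111.2 and 54.1 CPM in the Sox7 controls and 1092 and 88.3 CPM in the Sox7-deficient libraries. Cd74, the invariant chain, was at 54.6 and 43.7 CPM in the controls and 400.1 and 38.0 CPM in the deficient libraries. The log2 fold changes were 2.84 (SE 0.98) and 2.16 (SE 0.78), with unadjusted p of 0.014 each and adjusted p of 1 in the edgeR fit. Without Sox7-deficient 1 they were 0.065 for H2-Eb1 and −0.40 for Cd74. Of 8 tested class II genes 0 passed, and the median was 2.11; with no filter on low counts H2-Eb1 and H2-DMb1 passed. H2-DMb1, a peptide-exchange chain for class II, had 2.54 (SE 1.27). For Sox17 loss 0 of 8 passed, with 5 positive and a median of 0.09, and H2-DMa, the partner of H2-DMb1, had 1.82 (SE 0.97). Macrophage markers, class II genes and the class I values of set 1 were thus high in the same library, and the part of the markers in the class I values was not tested.

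**Figure D4:**
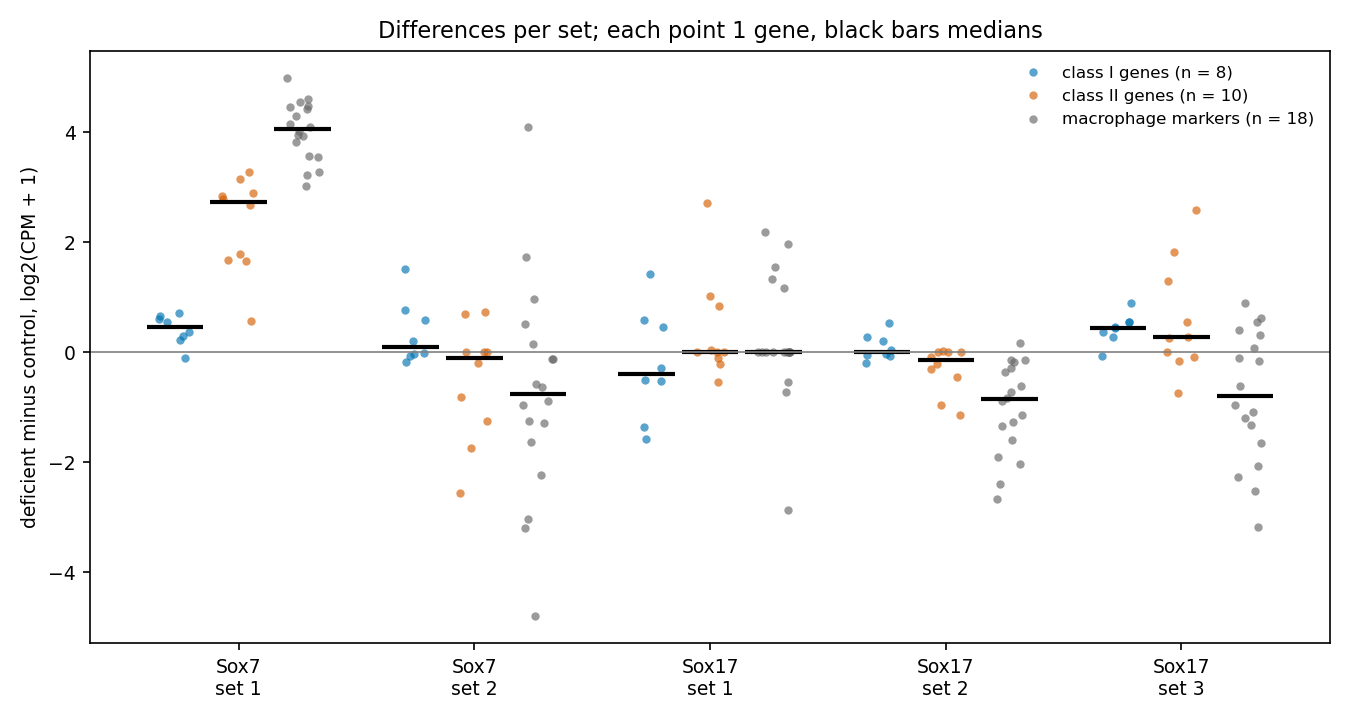
Deficient minus control on the log2(CPM + 1) scale in each set, for 8 class I genes, 10 class II genes and 18 macrophage markers; each point is 1 gene and black bars are medians. In Sox7 set 1 all macrophage markers and all class II genes but H2-Ob lie above every class I gene (median of class I 0.46), and in the other sets the 3 groups overlap.

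Other class I heavy chains and class I-like molecules were present at much lower levels, at 275 to 709 CPM summed over 14 genes. Of 14 tested, 0 passed in either comparison, with 10 of 14 positive for Sox7 loss (median 0.36) and 7 of 14 for Sox17 loss (median 0.06). H2-T10, a non-classical chain known as a ligand of gamma-delta T cells, was at 32.7, 96.9 and 48.3 CPM in the Sox17 controls and 350.1, 111.6 and 53.7 CPM in the Sox17-deficient libraries. Its log2 fold change of 1.53 (SE 0.65, unadjusted p = 0.034, adjusted p = 1 by edgeR) came mostly from set 1, and was 0.47 without Sox17-deficient 1. H2-M3, which presents formylated peptides, was higher in the deficient library in all 5 sets, by 0.27 to 1.28, with log2 fold changes of 0.93 (SE 0.77) and 0.60 (SE 0.63). The first was 0.079 without Sox7-deficient 1 and 2.17 without Sox7 control 1. Of all tested genes, 44.8% kept 1 direction, up or down, in every Sox7 set and 24.6% in every Sox17 set. The share with 1 direction in all 5 sets is not given, so the 5-set pattern has no background beside it. H2-Q4 had −0.75 (SE 0.60) for Sox17 loss. H2-M2 and H2-Q6 were at or near 0 in several libraries, and no fold is given. Sequence that these genes share with other genes was not examined, so their counts are uncertain.

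The genes that trim, load and check peptides in the endoplasmic reticulum were abundant, at 1170 to 4227 CPM summed over 8 genes. Of 8 tested, 0 passed, with 7 positive in each comparison (medians 0.14 for Sox7 and 0.49 for Sox17 loss, beside 0.04 and 0.05 over all genes). Calr, a chaperone of class I assembly, had log2 fold changes of 0.48 (SE 0.70) and 0.46 (SE 0.57), and Pdia3, its partner oxidoreductase, 0.54 (SE 0.60) for Sox17 loss. Tapbpl, a relative of tapasin that edits peptides, was higher in all 5 deficient libraries than in their set controls, by 0.16 to 0.89. Per arm, 44.8% (Sox7) and 24.6% (Sox17) of all tested genes kept 1 direction, up or down, in every set. The share over all 5 sets is not given, so this pattern has no background beside it. Erap1, an aminopeptidase that trims peptides to length, was at 20.9 and 3.96 CPM in the Sox7 controls and 38.4 and 25.1 CPM in the Sox7-deficient libraries, with a log2 fold change of 1.35 (SE 0.83) that ran from 0.60 without Sox7 control 2 to 2.97 without Sox7 control 1. Lnpep, another aminopeptidase, was at 0 in Sox7-deficient 2 and Sox17 control 1, and its other values lay between 7.42 and 14.3 CPM.

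Among the other inducible proteasome parts, 0 of 4 passed in either comparison. Psme1 and Psme2 form the PA28 cap that opens the proteasome. Psme2 was at 22.7 and 16.2 CPM in the Sox7 controls and 36.1 and 51.1 CPM in the Sox7-deficient libraries, a log2 fold change of 1.16 (SE 0.67). Psme1 was higher in the deficient library in all 5 sets, by 0.24 to 0.93, with 0.58 (SE 0.55) and 0.73 (SE 0.45). The list genes Psmb3, Psma6, Bst2 and Nfkb1 were also higher in the deficient library in every set. Per arm, 44.8% (Sox7) and 24.6% (Sox17) of all tested genes kept 1 direction, up or down, in every set. The share over all 5 sets is not given, so these genes have no background beside them. Psmb10, the inducible catalytic subunit outside the 8 members, had 0.49 (SE 0.58) and −0.08 (SE 0.48).

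Of the 3 constitutive catalytic subunits 0 passed in either comparison. All 3 were positive for Sox7 loss (median 0.47), with Psmb7 at 0.52 (SE 0.53), and 2 of 3 for Sox17 loss (median 0.10), with Psmb5 at 0.37 (SE 0.61). Of the other 11 subunits of the 20S core 0 passed, with 8 positive for Sox7 loss (median 0.30) and 7 for Sox17 loss (median 0.09). Psma6 had the smallest unadjusted p of these for Sox17 loss (1.20, SE 0.53, unadjusted p = 0.035, adjusted p = 1 by edgeR), followed by Psma3 (1.02, SE 0.52) and Psmb3 (0.76, SE 0.52). For Sox7 loss Psma7 had 0.61 (SE 0.45), Psmb3 0.69 (SE 0.63) and Psma5 0.74 (SE 0.73).

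Of 14 transcriptional regulators of class I genes 0 passed, with 4 positive and 10 negative for Sox7 loss (median −0.24) and 7 of each for Sox17 loss (median 0.04). Nlrc5, the class I transactivator, was at 7.02 to 34.9 CPM, highest in Sox17 control 1, with log2 fold changes of −0.36 (SE 1.20) and −0.73 (SE 0.99). Irf1 was at 340 to 692 CPM, with −0.10 (SE 0.49) and 0.27 (SE 0.40). Of all tested genes, 24.6% kept 1 direction in every Sox17 set. Nfyc, a subunit of the factor that binds CCAAT, was lower in the deficient library in all 3 Sox17 sets. The differences were 0.86 to 2.43 on the log2(CPM + 1) scale. For Nfyc the log2 fold change was −1.66 (SE 0.96). Its partner Nfyb had −0.72 (SE 0.47) and Stat2 −0.77 (SE 0.53) for Sox17 loss. For Sox7 loss Nfyb had −0.49 (SE 0.58), and the RFX subunits Rfx5 and Rfxank −0.63 (SE 0.78) and −1.64 (SE 2.35).

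Interferon transcripts themselves were nearly undetected. Ifng was at 0.84 and 1.88 CPM in Sox7 control 1 and Sox7-deficient 1 and listed at 0 in the other 8 libraries, and Ifnb1 was above 0 only in Sox7-deficient 1, at 0.43 CPM. Of the 7 tested receptors and kinases 0 passed. Ifngr1, a receptor chain for interferon-gamma, was at 81.3 and 38.5 CPM in the Sox7 controls and 205.7 and 64.6 CPM in the Sox7-deficient libraries (log2 fold change 1.17, SE 0.62, or 0.080 without Sox7-deficient 1), and Ifnar2 had −0.64 (SE 0.45) for Sox17 loss. Of 25 interferon-stimulated genes 0 passed, with 13 positive for Sox7 loss (median 0.04) and 8 for Sox17 loss (median −0.28). Socs1, an inhibitor of JAK kinases, was at 72.3 and 36.4 CPM in the Sox7 controls and 326.7 and 32.5 CPM in the Sox7-deficient libraries, so that only Sox7-deficient 1 stood apart. Irgm1 and Oas1a had 1.27 (SE 0.74) and 1.55 (SE 1.16) for Sox7 loss, and the latter ran from 0.57 without Sox7 control 2 to 6.07 without Sox7 control 1. For Sox17 loss, the T-cell inhibitory ligand Cd274 had −0.79 (SE 0.44), Ifit2 −0.91 (SE 0.73) and Ifitm3 0.48 (SE 0.36).

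The members' mean standardised level over the 10 libraries was highest in Sox7-deficient 1 (0.998) and lowest in Sox7 control 2 (−0.828). The 5 other genes most like this profile were Rab24 (r = 0.872), Atp6v0c-ps2 (0.868), Atp6v0c (0.865), Uhrf1bp1 (0.855) and Plekha2 (0.848). These are Pearson coefficients over 10 libraries that differ in depth and fall into sets, given as a description; Spearman's rho ran from 0.758 to 0.915. Without Sox17 control 1 the Pearson coefficients were 0.847 to 0.882. Atp6v0c, a proton-pump subunit, and its pseudogene had almost the same CPM in each library, and their reads cannot be told apart. Of the 5 genes, 4 were highest in Sox7-deficient 1 and Plekha2 in Sox17 control 1.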

How the data were processed

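RNA was measured in 10 libraries made from 500 ng of total RNA with the Lexogen QuantSeq kit, per the labels' protocols. The authors deposited 1 table per library with raw counts, whole numbers for each gene symbol. Bowtie2, edgeR and the mouse build mm10 are named in the submitters' processing notes, without versions or roles; the counter, its strand setting and its annotation are not given in the sources used here. The 1183 symbols listed in the Sox17 files alone, all beginning with Mir, were left out, and lines of a repeated symbol were summed (35 in the Sox7 arm and 43 in the Sox17 arm, no member among them). No 2 libraries were identical.

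Counts were tested with edgeR 4.0.16 in R 4.3.3 (quasi-likelihood F-test, robust, TMM scaling, filterByExpr) on all 10 libraries with a mean per group and 6 residual degrees of freedom; 13040 genes were tested and 10198 removed. The common biological coefficient of variation was 0.989. P-values were adjusted by the Benjamini-Hochberg method over the 13040 genes, with a threshold of 0.05. The SE is the size of the log2 fold change over the square root of F. CPM are relative to TMM-scaled library sizes, except those of the limit of detection, which are relative to unscaled totals. The H2-D1 share and the inducible proteasome share were compared by exact permutation of libraries. The B2m, Tap1 and Psmb9 shares were not tested. Intervals of all shares are exact (Clopper-Pearson). The limit of detection is 3 counts, and limits and intervals cover counting error only, since no molecular identifiers are named. Alternatives were DESeq2 1.42.0 (its size factors, its Wald test), limma-voom 3.58.1, no filter, the set as a block, the arm's libraries alone, Rn45s left out, another choice of proteasome genes, other pseudocounts (0.25 and 5 CPM) and each library left out. Plain library sizes and leaving out Sox17 set 1 were chosen after seeing the data.

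The set numbers were taken to pair libraries, because the sample descriptions share a run label within 4 of the 5 sets (Sox17 set 1 has none). Deviations from group means correlated at 0.193 within both Sox7 sets, which have the same value by construction, and at 0.120, 0.0911 and 0.0896 in Sox17 sets 1, 2 and 3.

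The members and gene lists were chosen with earlier results of these data known. Genes named are the 8 members; from each list the tested genes with the smallest unadjusted p in each comparison (3 for lists of 8 or more tested genes, otherwise 1); the 5 genes most like the members' mean standardised level; and Sox7 and Sox17. Psmb10, Nlrc5, Irf1, Ifng and Ifnb1 were added for their known roles after their values were seen. Gene models are those of GENCODE vM21 (GRCm38, which is mm10), and promoter sequences from RefSeq on GRCm38.p6, where 7 of the 8 members were matched by symbol.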

Additional observations from a re-analysis of the deposited data

Results flagged for a closer look

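H2-T10 was lower in the deficient library in both Sox7 sets (−0.42 and −1.91 on the log2(CPM + 1) scale) and higher in all 3 Sox17 sets (3.38, 0.20 and 0.15). The difference between the Sox7 and Sox17 log2 fold changes was −2.46 and did not pass the edgeR test (adjusted p = 0.999986). Psme2 was higher in the deficient library in both Sox7 sets (0.64 and 1.60) and lower in all 3 Sox17 sets (−0.03, −0.09 and −0.54). The difference was 1.32 and did not pass either (adjusted p = 0.999986). These genes stand here because every set of one arm went opposite to every set of the other. That held for 5.27% of all 13040 genes tested and for 9 of 168 tested genes of the lists (H2-T10, H2-Q2, Psme2, Eng, Egfl7, Icam2, Vwf, Clec14a and Cspg4).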

How the results depend on the processing

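No member passed in any of the 3 comparisons under any of the 19 alternatives run for Sox7 loss and Sox17 loss or the 18 for their difference, and at most 1 member had an unadjusted p under 0.05. The smallest adjusted p of a member was 0.824 for Sox7 loss and 0.783 for the difference, both without Sox7 control 1, and 0.949 for Sox17 loss with no filter. The contrast of both losses could not be fitted on the libraries of 1 arm alone. Counts of genes passing, 0 in all 3 edgeR comparisons, became 3, 29 and 14 with DESeq2's Wald test and 58, 30 and 58 with no filter (Sox7 loss, Sox17 loss, difference). With the set number as a replicate block they were 1, 6 and 3, and the block changed no call of a member. With 1 library left out they ranged from 0 to 14, 0 to 1 and 0 to 9, and the highest counts came without Sox7-deficient 1. The cause of these changes was not tested.

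The members' median log2 fold change for Sox7 loss ranged from −0.0747 without Sox7-deficient 1 to 0.658 without Sox7-deficient 2. Of 448 alternative log2 values of the 8 members in 3 comparisons, 414 kept their direction and 34 turned, in 15 of 24 results. With plain library sizes, H2-K1 was at −0.032 and Tap2 at −0.0666 for Sox7 loss, and with that arm's libraries alone Tap2 was at −0.00454. For Sox17 loss limma-voom gave 0.053 for Psmb9. Without both libraries of Sox17 set 1, values for Sox17 loss were 0.18 for H2-K1, 0.17 for B2m and 0.23 for Psmb9, and the differences of H2-K1 and H2-D1 were −0.0872 and −0.0651. With 1 library left out, values for Sox7 loss ranged from −0.35 to 0.44 for H2-K1, −0.033 to 0.55 for H2-D1, −0.40 to 0.77 for Tap1, −0.23 to 0.31 for Tap2 and −0.12 to 0.77 for Psmb8. For Sox17 loss they ranged from −0.71 to 0.090 for H2-K1, −0.050 to 0.31 for H2-D1, −1.58 to 0.72 for B2m, −0.13 to 0.64 for Tapbp and −0.12 to 0.13 for Psmb9. For the difference they ranged from −0.17 to 0.39 for H2-D1, −0.11 to 2.19 for B2m, −0.80 to 0.35 for Tap1 and −0.085 to 1.32 for Tapbp. For Sox7 loss H2-K1, H2-D1, Tap1, Tap2 and Psmb8 turned without Sox7-deficient 1, and H2-K1 and Tap2 also without Sox7 control 2. For Sox17 loss H2-K1 and B2m turned without Sox17 control 1, H2-D1 without Sox17 control 3 and Tapbp without Sox17-deficient 1, and Psmb9, whose value is close to 0, turned without any of 4 libraries.

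Among other named genes, 813 of 833 alternative values kept direction and side of the threshold, 9 newly passed (Sox7, Sox17, H2-Eb1 and H2-DMb1) and 11 turned. With 1 library left out, values for Sox7 loss ranged from −0.31 to 1.15 for Calr, −9.57 to 0.24 for Lnpep, −0.77 to 2.59 for Socs1, −0.40 to 3.02 for Cd74 and −0.50 to 3.73 for H2-DMb1. For Sox17 loss they ranged from −0.00047 to 0.93 for Calr, −0.13 to 0.97 for Psmb5, −1.09 to 0.18 for Stat2, −0.98 to 0.085 for Ifnar2, −5.16 to 0 for H2-Ob and −0.19 to 0.59 for H2-Eb1. The H2-Ob range has little meaning, since in the Sox17 arm that gene was counted only in Sox17 control 3 (11 counts). The immunoproteasome share difference ranged from −1.97 to 4.85 points in the Sox7 arm and −7.19 to 1.73 points in the Sox17 arm, and that of the H2-D1 share in the Sox7 arm from −0.954 to 7.42 points and in the Sox17 arm from 2.41 to 11.7 points. Under other pseudocounts, all 80 per-set differences shifted by less than the SD between the sets of the arm. Their direction cannot depend on the pseudocount. The lowest count of a member in any library was 256, that of Tap1 in Sox17 control 1, the shallowest library. Some weaker list genes were at 0 in several libraries. The part of depth in the members' values was not tested.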

Other observations

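Psmb9 made up 45.8, 45.2 and 42.5% of Psmb8 plus Psmb9 counts in the Sox17 controls and 46.0, 47.9 and 48.5% in the Sox17-deficient libraries. These groups did not overlap, with a mean difference of 2.99 percentage points, although neither gene separated them by level. The exact 95% binomial intervals of set 1 overlapped (42.4 to 49.2% in the control, 43.8 to 48.3% in the deficient library). In the Sox7 arm the shares were 55.6 and 49.3% in the controls and 48.3 and 63.0% in the deficient libraries, which overlapped. This ratio was chosen after its values were seen and was not tested.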
